A study of Homo sapiens with 5 samples.

Results

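The regions described here gained an Rb peak with abemaciclib, lay away from promoters and lacked CpG-island sequence at their summit. They numbered 393 of the 15036 regions obtained by merging the peaks of 4 Rb CUT&RUN libraries, a method that cuts out and sequences the DNA next to an antibody-bound protein. All came from parental ZR-75-1, a luminal breast cancer line that expresses the oestrogen receptor. For 4 days the cells were given either DMSO or the CDK4/6 inhibitor abemaciclib at 500 nM, and each treatment had 2 Rb libraries. DMSO-treated cells also gave 1 IgG2a library, which measured the background of the method. The labels name 1 cell line, so values apply to that line, and the 2 libraries per treatment set the only measure of spread.

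Selection used the peak calls themselves. A region counted as gained when abemaciclib replicates 1 and 2 each had a peak there and no DMSO library did, which held for 8625 of 15036 regions (57.4%). Of these, 779 on chromosomes 1 to 22 and X did not touch the span from 2000 bp upstream to 500 bp downstream of any annotated transcription start site (TSS). Of the 779, 393 had a GC content under 50% or an observed/expected CpG ratio under 0.6 in the 200 bp around the summit of abemaciclib replicate 1, and the other 386 met neither limit. That ratio divides the number of CpG dinucleotides by the number predicted from the C and G content. Peak presence, summit sequence and distance from promoters were therefore fixed by the choice of regions and are given as description. The number depended on both abemaciclib libraries: it was 705 when replicate 1 was left out and 1153 when replicate 2 was left out, against 398 and 405 without DMSO replicates 1 and 2.

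Rb is the product of the retinoblastoma gene. In its hypophosphorylated form it binds E2F transcription factors, chiefly at promoters of cell cycle genes, and inhibitors of CDK4 and CDK6 keep it in that form. Most such promoters lie in CpG islands, stretches of DNA that escape the CpG loss seen elsewhere in vertebrate genomes. Enhancers, by contrast, are distal elements that often lack island sequence. In luminal breast cells many of them are occupied by the oestrogen receptor, FOXA1 and GATA3, a forkhead and a GATA factor that open and maintain luminal chromatin. No enhancer mark was analysed here, so the regions are named by position and sequence and not as enhancers. Each is called by the protein-coding gene whose TSS is nearest, which does not mean that the gene is its target.

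The sequences that carry the main observation are the summit windows that hold an E2F pattern although they are not CpG islands. Coordinates are GRCh38, and capitals mark every match to the patterns described further on. The TEX19 window was the best ranked of all regions with the pattern, and those nearest to CCNE1, CDH1 and IGFBP5 belonged to the cell cycle, luminal and oestrogen lists. The AHDC1 window held an oestrogen response element as well.
TEX19 region, chr17:82351972-82352171, plus strand: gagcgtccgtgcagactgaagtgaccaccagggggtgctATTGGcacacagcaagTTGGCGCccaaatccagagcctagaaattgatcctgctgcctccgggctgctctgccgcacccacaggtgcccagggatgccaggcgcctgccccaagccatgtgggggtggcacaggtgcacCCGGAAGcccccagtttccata
CCNE1 region, chr19:29835027-29835226, plus strand: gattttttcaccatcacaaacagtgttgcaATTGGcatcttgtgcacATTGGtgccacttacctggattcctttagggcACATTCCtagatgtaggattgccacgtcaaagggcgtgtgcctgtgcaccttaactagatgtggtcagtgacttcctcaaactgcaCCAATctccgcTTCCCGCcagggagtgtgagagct
CDH1 region, chr16:68732101-68732300, plus strand: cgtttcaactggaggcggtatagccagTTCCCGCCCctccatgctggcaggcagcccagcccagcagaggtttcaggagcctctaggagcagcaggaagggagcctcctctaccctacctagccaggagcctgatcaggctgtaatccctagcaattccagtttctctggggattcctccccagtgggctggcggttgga
IGFBP5 region, chr2:216758177-216758376, plus strand: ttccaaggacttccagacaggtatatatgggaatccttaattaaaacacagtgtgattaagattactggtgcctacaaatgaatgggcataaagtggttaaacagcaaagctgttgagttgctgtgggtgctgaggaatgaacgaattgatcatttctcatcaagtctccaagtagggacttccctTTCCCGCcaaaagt
AHDC1 region, chr1:27601868-27602067, plus strand: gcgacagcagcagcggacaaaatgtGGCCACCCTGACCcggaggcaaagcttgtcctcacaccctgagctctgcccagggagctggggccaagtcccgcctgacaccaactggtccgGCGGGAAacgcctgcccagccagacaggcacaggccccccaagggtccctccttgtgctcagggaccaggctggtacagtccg

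In the TEX19 window the capitals are an inverted CCAAT box, the E2F pattern TTGGCGC and an ETS pattern, from left to right. The CCNE1 window held 3 CCAAT boxes, 2 of them inverted, a TEAD pattern and the E2F pattern TTCCCGC. In the CDH1 window TTCCCGC ran into an inverted GC box, so the 2 patterns shared bases. The IGFBP5 window held TTCCCGC alone, and the AHDC1 window held the oestrogen response element followed by the E2F pattern on the minus strand. E2F sites are the classical docking sequence for the factors that bring Rb to DNA, while a match to these letters is a description and no evidence that either was bound there.

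A second set shows regions near genes of luminal and proliferative interest in which no E2F pattern was found. It comprises the region beside CCND1, which encodes cyclin D1, that upstream of KRT19, and the best-ranked window with a CTCF pattern.
LTO1 region beside CCND1, chr11:69654786-69654985, plus strand: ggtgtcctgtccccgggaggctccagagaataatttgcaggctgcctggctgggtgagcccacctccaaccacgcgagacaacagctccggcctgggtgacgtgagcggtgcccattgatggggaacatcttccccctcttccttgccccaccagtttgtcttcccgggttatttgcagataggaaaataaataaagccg
KRT19 region, chr17:41549169-41549368, plus strand: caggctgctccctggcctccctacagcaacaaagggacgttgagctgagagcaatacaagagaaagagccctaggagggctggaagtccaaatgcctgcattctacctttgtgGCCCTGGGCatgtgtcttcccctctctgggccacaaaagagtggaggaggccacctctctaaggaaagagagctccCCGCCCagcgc
SMUG1 region, chr12:54214745-54214944, plus strand: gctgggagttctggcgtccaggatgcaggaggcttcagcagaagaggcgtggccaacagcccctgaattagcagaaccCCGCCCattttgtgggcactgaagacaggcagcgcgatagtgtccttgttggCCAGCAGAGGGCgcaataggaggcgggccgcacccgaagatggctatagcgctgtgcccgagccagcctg

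No capitals appear in the LTO1 window, which matched none of the 18 patterns. The KRT19 window held an AP-2 pattern and an inverted GC box, and the SMUG1 window an inverted GC box and a CTCF pattern.

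Peaks at these regions were weak for their libraries. The whole lists used for comparison also hold peaks at promoters and at regions with a DMSO peak. The choice of regions left those out, so the comparison is a description. Abemaciclib replicates 1 and 2 had 13960 and 12234 peaks, the DMSO replicates 1438 and 2582, and IgG2a 589. Fold enrichment, in which 1 is added to the fragment pileup and to the local background before dividing, had a median of 6.64 at the 393 regions in abemaciclib replicate 1 and 5.99 in replicate 2, against 10.4 and 10.1 over the whole lists. The range was 3.01 to 35.6 in replicate 1 and 3.52 to 31.4 in replicate 2. Median −log10 p was 11.1 and 9.10, against 20.2 and 18.4 over the lists, and median peak width 424 and 377 bp, against 755 and 726 bp. When each list was ordered by p, 77 of the 393 peaks (19.6%; Wilson 95% interval 16.0 to 23.8) ranked above the middle of the list in replicate 1, and 50 (12.7%; 9.79 to 16.4) in replicate 2. None stood among the best 10% of peaks in replicate 1 (0%; Wilson 95% interval 0 to 0.968), and 1 did in replicate 2.

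The fragments behind these values were few. A whole-number pileup and a background that satisfy both the fold and the p-value could be solved for 392 regions in replicate 1 and 391 in replicate 2. The median summit pileup was 13.0 fragments (range 5.00 to 145) over a median background of 0.995 in replicate 1, and 11 fragments (5.00 to 98.0) over 0.779 in replicate 2. In the DMSO lists the smallest pileup that was called was 6 fragments in each library, and the 5th percentile was 7 fragments. A region listed as having no DMSO peak may thus still have carried a few fragments, and the lists give no DMSO value for it. Total depth is not given by the lists, so no share of reads can be stated.

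The abemaciclib replicates ordered the regions similarly. Spearman's rho of −log10 p between them was 0.63 over the 393 regions and 0.80 over the 386 with island sequence, a description in which each point shares the same 2 libraries. Summits of the 2 replicates lay a median of 65 bp apart. The sequence rule was met at the replicate 2 summit too in 346 of 393 regions (88.0%), while 50 of the 386 island regions (13.0%) met it there. The lists hold no counts over shared regions, so no region was tested against DMSO here.

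**Figure D1:**
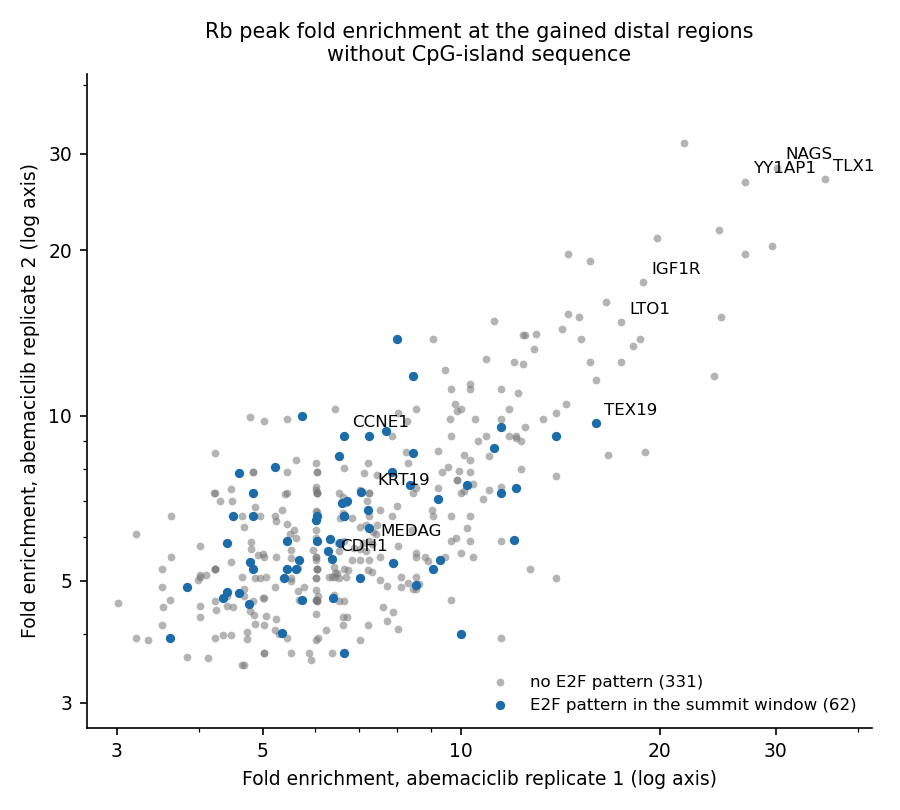
Fold enrichment of the Rb peak in abemaciclib replicate 1 (horizontal) and replicate 2 (vertical), both on log axes, for the 393 gained distal regions without CpG-island sequence, 1 point each. Blue points are the 62 regions whose summit window holds an E2F pattern; they spread through the cloud, and the strongest peaks, at YY1AP1, TLX1 and NAGS, are grey.

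An IgG2a peak overlapped 1 region. The Rb peaks had been called against IgG, which lowers such overlap beforehand, so the count does not measure background at the other regions. The overlapping region lay at chr13:30844088-30844340, 62.1 kb upstream of MEDAG, in intergenic sequence. Its pileup was the highest of all, 145 and 98 fragments, over a local background of 18.91 and 15.98, so that its fold was only 7.33 and 5.83. Repeated sequence filled its summit window, with under 70% distinct 8-mers, which held for no other region. One region lay within 1 kb of a DMSO peak.

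The strongest regions were few and most of them abutted island-like sequence. The best mean rank belonged to chr1:155651042-155651737 in an intron of a non-coding gene 19.6 kb from the TSS of YY1AP1, with folds of 26.9 and 26.7 and pileups of 65 and 57 fragments in replicates 1 and 2. Next was chr10:101139090-101140986, 5.35 kb downstream of the TSS of TLX1, a homeobox gene, with folds of 35.6 and 27.0. An exon of NAGS, the gene of a mitochondrial urea cycle enzyme, followed with 30.1 and 28.3. All 3 contained an island-like 200-bp window, with GC of 50% or more and a CpG ratio of 0.6 or more, beside a summit that missed those limits.

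Of the remaining regions among the best 12, other than that near MEDAG, those in exons and introns were at GRID2IP (folds 21.8 and 31.4), BMF (24.6 and 21.8), SYP (29.6 and 20.4), HPD (26.9 and 19.7), LTO1 (17.5 and 14.8), TEKT5 (19.8 and 21.1) and IGF1R (18.9 and 17.5). BMF encodes a BH3-only promoter of apoptosis, and IGF1R the receptor for insulin-like growth factor 1. The region near OR1D5, an olfactory receptor gene, was intergenic (24.8 and 15.1). The lowest of these 16 folds was 14.8. Only the TEKT5 region stood apart from island-like sequence, at 2970 bp from the nearest such window, and the other 7 had one within 80 bp of the summit. None of the best 12 windows held an E2F pattern.

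How far the regions stood from island-like sequence varied widely. Median GC content at the summit was 56.5% (range 34.5 to 74.5) and the median CpG ratio 0.368. Most qualified through CpG depletion alone: 293 had a low ratio with GC of 50% or more, 91 had both low values, and 9 had low GC only. GC reached 60% in 145 regions (36.9%). By comparison, 98.8% of 1319030 tiles of 200 bp sampled from the genome outside promoters met the same rule, whereas 386 of the 779 gained distal regions did not.

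An island-like window lay within 100 bp of the summit in 123 regions (31.3%) and within 200 bp in 175 (44.5%). It lay inside the merged region in 148 (37.7%). At the other extreme, 135 regions (34.4%) had none within 1 kb and 43 (10.9%) none within 5 kb. The last group included the regions in SMPD3 (folds 11.8 and 10.3) and MB (12.3 and 7.99), its best-ranked members, and the one upstream of KRT19. Median folds were close in the regions with such a window within 1 kb (6.67 and 6.27) and those without (6.48 and 5.79).

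The limits cut through a continuum. Just inside on CpG ratio were the regions near C17orf50 (0.598), SLC5A5 (0.597) and POTEC (0.596), and just outside those near BTG2 (0.602), ZBTB43 (0.604) and EMP3 (0.604). On GC content, the regions near DIP2C and ZNF57 (49.0% each) and TUBA1C (48.5%) were just inside, and those near ADGRE1 and SLC1A3 (50% each) and OR4D9 (51.0%) just outside. Of the members with GC of 50% or more, 80 had a ratio of at least 0.5, and 99 island regions had one under 0.7.

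Introns of protein-coding genes held 167 of the summits (42.5%; 37.7 to 47.4), and 153 (38.9%; 34.2 to 43.8) were intergenic. Introns of non-coding genes held 41 (10.4%), coding-gene exons 25 (6.36%) and non-coding exons 7 (1.78%). The share of the genome outside promoters in each of these positions was not measured, so no enrichment can be read from these values. Among introns of coding genes the best-ranked regions were at GRID2IP and BMF, among non-coding introns those nearest to YY1AP1 and LRRC37A3 (9.46 and 12.1), and among non-coding exons those near MSL1 (12.4 and 12.4) and SPAG9 (10.1 and 7.28). The median distance to a coding TSS was 9.86 kb, 198 regions (50.4%) lay within 10 kb, and 28 (7.12%) beyond 100 kb. Regions in non-coding introns were the most remote class, at a median of 55 kb.

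**Figure D2:**
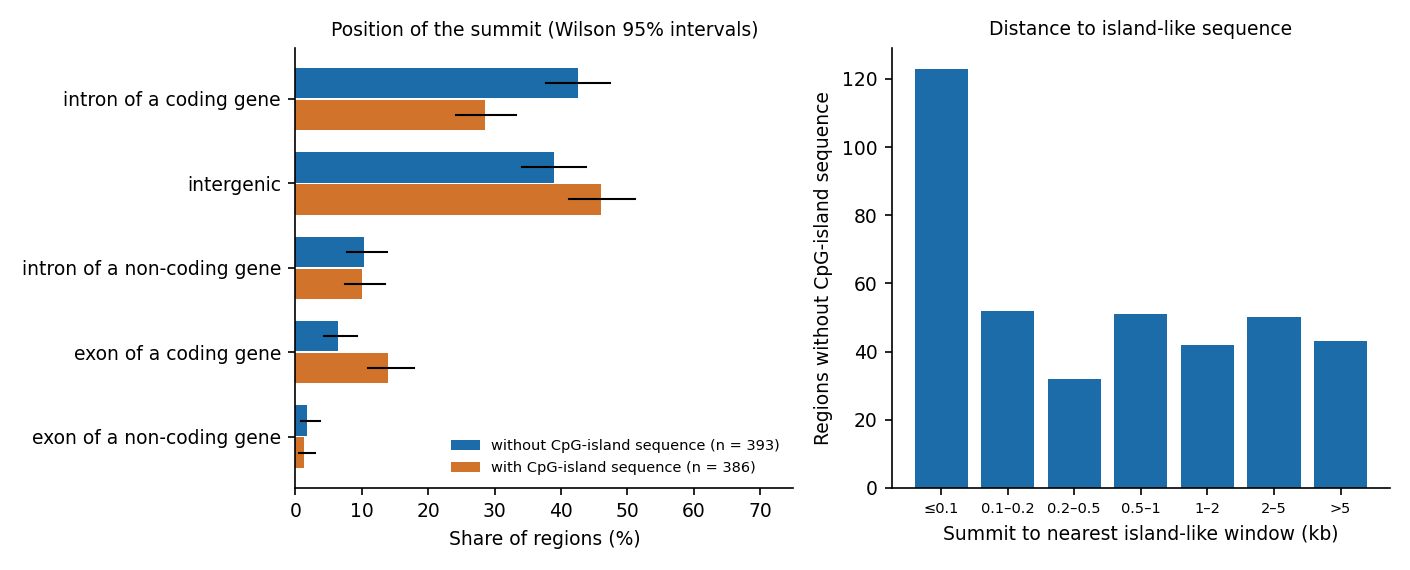
Left, position of the summit for the 393 gained distal regions without and the 386 with CpG-island sequence, as a share of regions with Wilson 95% intervals. Right, number of the 393 regions by distance from the summit to the nearest island-like 200-bp window: 123 lie within 0.1 kb and 43 have none within 5 kb.

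Comparison with the 386 gained distal regions that did have island sequence used 7 attributes on which the 2 classes had not been separated, by two-sided Fisher's exact tests with Benjamini-Hochberg adjustment over the 7. Regions share libraries and are not replicates, so the tests describe these 2 sets. Summits in coding-gene introns made up 42.5% without island sequence and 28.5% with it (odds ratio 1.85, Fisher's exact test, adjusted p = 1.20e-04). The intergenic share was 38.9% against 46.1%, which did not pass Fisher's exact test (adjusted p = 0.0880).

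Peaks of replicate 2, which played no part in assigning the sequence class, were smaller at the regions without island sequence. By Fisher's exact test, the share ranked above the middle of the replicate 2 list was 12.7% against 26.9% (adjusted p = 2.20e-06), and 24.2% against 44.3% were wider than 500 bp (adjusted p = 2.28e-08). No difference was detected in the other attributes. By the same exact test, within 10 kb of a coding TSS lay 50.4% and 50.5% (adjusted p = 1.00), within 5 kb of a promoter region with an Rb peak 20.4% and 19.7% (adjusted p = 1.00), and with replicate summits within 100 bp of each other 67.7% and 66.3% (adjusted p = 0.985).

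When both sequence limits were required, 91 regions were left. Their comparison set was then all 688 other gained distal regions, including those that met the CpG or the GC limit alone. Against that set, the intron difference was 3.29 percentage points (Fisher's exact test, adjusted p = 0.561). The difference in rank above the middle was −6.21 points (Fisher's exact test, adjusted p = 0.378), while the difference in width still passed. The 91 regions were not tested against island regions alone, so these values do not show whether the intron and rank differences from island regions hold for them.

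**Figure D3:**
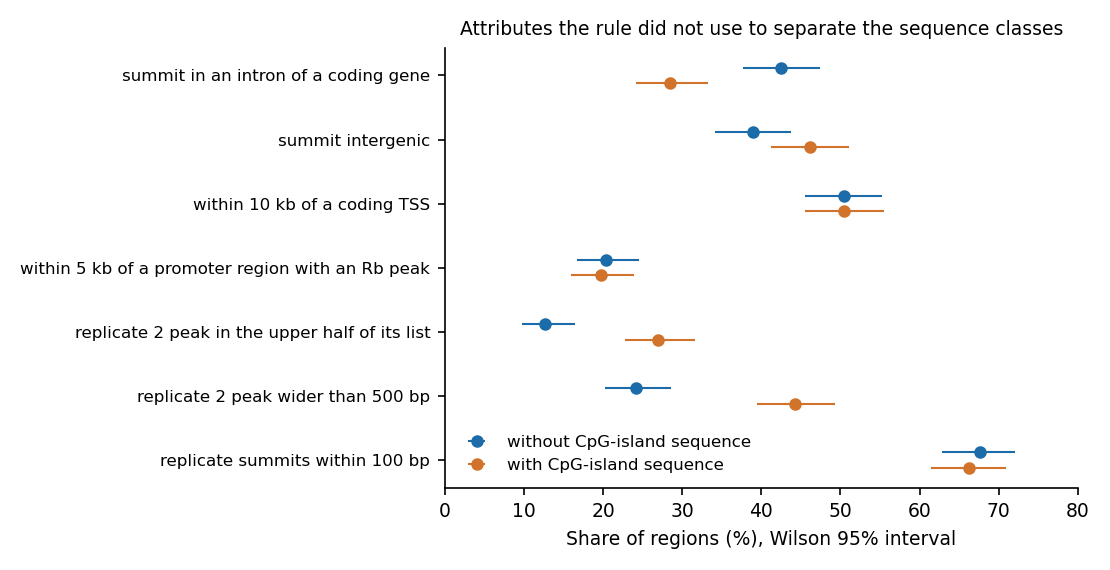
Share of regions (horizontal axis, percent, with Wilson 95% intervals) with each of 7 attributes, for gained distal regions without (blue, 393) and with (orange, 386) CpG-island sequence. The classes separate on intron position, on rank and on width of the replicate 2 peak; the intervals of the other attributes overlap.

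Motifs were sought on both strands in the 200-bp summit windows. The rule selected on base composition, which sets how often a pattern occurs, so shares are given without tests beside 4 references. These were windows 1 kb to either side of the same summits (786), the 386 island regions, gained promoter regions, and the 1319030 genomic tiles. At least 1 of the 18 patterns occurred in 284 windows (72.3%).

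The E2F pattern was the clearest feature of the summits. It was read as TTCCCGC, as TTGGCGC, as TTGCCGC and as TTCGCGC, the letters in which E2F sites are usually written, and occurred in 62 of 393 windows (15.8%; 12.5 to 19.7), and in 60 (15.3%) around the replicate 2 summit. One kb away it was found in 2.67% of windows, and 0.836% of genomic tiles held it. Island regions reached 21.8% and gained promoter regions 17.2%. The regions without island sequence thus carried it nearly as often as gained promoters, and the intervals of the summit and flank shares did not overlap. Summit intervals of the GC box, AP-2 and forkhead patterns also lay above those of the flanks. Flanks were not matched for base composition. Mean GC was 56.1% at the summit, against 50.4% and 49.9% at 1000 bp to the left and right, and the mean CpG ratio 0.364 against 0.309 and 0.317.

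The share stayed above that of tiles in each class of GC content. Members and tiles were not matched for CpG ratio, and every E2F pattern holds a CpG. In 6 classes of GC content from under 45% to 65% and above, between 8.33% and 18.7% of members held the pattern, against 0.514% to 5.25% of genomic tiles that met the sequence rule in the same classes. In the class under 45% GC it was 7 of 46 regions (15.2%) against 0.514% of tiles. Members with no island-like window within 1 kb held it in 31 of 135 windows (23%; 16.7 to 30.7), and those with one in 31 of 258 (12%; 8.60 to 16.6). Of the 43 with none within 5 kb, 10 did.

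Among the 68 matches, 47 (69.1%) read TTCCCGC, compared with 57.6% of matches in island regions and 47.6% in gained promoters. TTGGCGC gave 9, TTGCCGC 8 and TTCGCGC 4. Of the windows, 6 held more than 1 match, including those near LYST and NFIB. Matches lay a median of 60 bp from the summit. Of the 68, 31 lay within 50 bp of it. In windows moved along the region the share was 16.5% at 50 bp to the left, 15.8% at the summit and 18.6% at 50 bp to the right, and it was highest, 19.3%, at 100 bp to the right. It was 10.4% and 14.2% at 200 bp to the left and right, and 3.05% and 1.78% at 500 bp. The rise was broad and its highest point lay beside the summit. The rule selected on the summit window, where the mean CpG ratio was 0.364, against 0.394 and 0.390 at 100 bp to the left and right. Each E2F pattern holds a CpG, and whether the rule shifted the highest point was not tested.

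Regions with the pattern were not the strongest. Their median folds were 6.57 and 6.35, and the pattern was found in 13.1%, 18.4%, 17.3% and 14.3% of regions in 4 successive classes of equal size by mean rank, from the best to the worst. The best ranked were those upstream of TEX19 (folds 16.0 and 9.68, pileups of 31 and 20 fragments) and of CDR2L (11.2 and 8.74, pileups of 27 and 19).

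**Figure D4:**
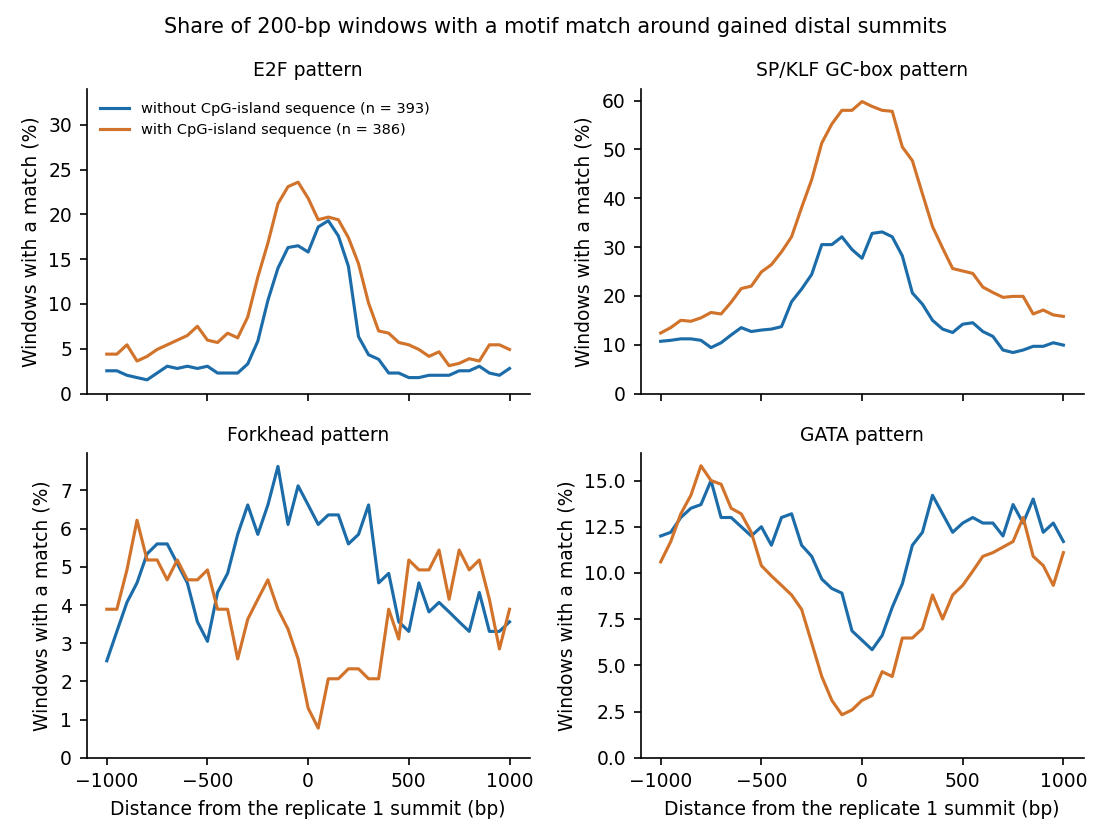
Share of 200-bp windows with a match (vertical axes, percent, each from 0) against distance from the replicate 1 summit, in steps of 50 bp, for gained distal regions without (blue) and with (orange) CpG-island sequence. The E2F share rises around the summit in both classes, in the blue class from 3.05% at 500 bp to the left to 15.8% at the summit and a highest value of 19.3% at 100 bp to the right, while the GATA share is 6.36% at the summit.

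The GC box GGGCGG, bound by SP and KLF factors at many promoters, occurred in 109 windows (27.7%), in 10.3% of flanks and in 59.8% of island regions. The AP-2 pattern, GCC and GGC separated by 3 bases and named for the family that includes the luminal factor TFAP2C, occurred in 54 (13.7%), against 7.76% of flanks and 28.5% of island regions. Tiles held them in 2.31% and 2.66%. Both patterns are rich in G and C, and both were less frequent here than at islands. The GC box was present in the top-ranked regions in NAGS and GRID2IP, and the AP-2 pattern in that in NAGS. The ETS pattern CCGGAAG occurred in 11 windows (2.80%) and the E-box CACGTG in 14 (3.56%), against 0.392% and 1.77% of tiles.

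Forkhead, GATA and AP-1 patterns were less frequent than the E2F pattern. The forkhead patterns TGTTTAC and TATTTAC occurred in 26 windows (6.62%; 4.55 to 9.52), above the flanks (3.05%) and the island regions (1.30%), but not above all tiles (7.34%). The GATA patterns AGATAA and TGATAA occurred in 25 (6.36%), below both flanks (11.8%) and tiles (25%). AP-1, read as TGANTCA, was found in 19 (4.83%), close to the flanks (4.71%). Tiles are mostly AT-rich, and in the 6 GC classes the forkhead share was 1.43% to 13.0% in members against 0.381% to 9.25% in tiles, and was higher in members in each class. For GATA it was 4.00% to 15.2% against 1.13% to 31.0%, with members below tiles in the 3 classes under 55% GC.

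The oestrogen response element, GGTCA and TGACC separated by 3 bases with 1 mismatch allowed, was matched in 5 windows (1.27%; 0.545 to 2.94), 0.254% of flanks, 0.384% of tiles and no island region. The 5 were near AHDC1 (folds 11.5 and 9.55), ECE1 (12.1 and 9.12), COBL, LRRK1 and RBBP6, and 3 of them also held an E2F pattern. CTCF, a factor that anchors chromatin loops, was matched in 4 windows (1.02%), near SMUG1 (7.85 and 9.20), LRMDA (7.23 and 9.20), ZNF217 and GOLGA6A, against 0.0661% of tiles. These counts are small and their intervals wide.

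The best-ranked forkhead windows were in an intron of ZFHX3 (13.0 and 14.1) and near ADK (13.9 and 9.20), the best GATA windows near NKAIN1 (15.1 and 15.1) and SMIM41 (16.0 and 11.6), and the best AP-1 windows near FOXI3 (18.7 and 13.8) and in NEK7 (12.9 and 13.2). A forkhead pattern or an oestrogen response element was present in 31 windows (7.89%), against 5 island windows (1.30%). Any of 6 luminal-factor patterns, with a grainyhead-like pattern (GRHL) among them, was present in 116 (29.5%), against 131 island windows (33.9%). This pooled share was dominated at islands by the GC-rich AP-2 pattern, found in 110 island windows (28.5%) and 54 windows here (13.7%). The others were each more frequent here than at islands: forkhead 6.62% against 1.30%, GATA 6.36% against 3.11% and AP-1 4.83% against 1.81%. The oestrogen response element was at 1.27% against 0%, and GRHL at 1.27% against 0.777%.

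Patterns linked to the cell cycle other than E2F were about as frequent at the summit as beside it. CCAAT, the NFY box, occurred in 78 windows (19.8%), in 19.7% of flanks and in 27.5% of tiles. TTTGAA, the CHR element through which the DREAM complex binds, occurred in 41 (10.4%), in 12.6% of flanks and in 22.6% of tiles. Neither was compared within classes of GC content. TGTGGTT for RUNX and ACATTCC for TEAD were found in 12 (3.05%) and 11 (2.80%), against 3.82% and 3.31% of tiles. The region in SYP, which encodes synaptophysin, was the best ranked with either a CCAAT box or a CHR element. The YY1, cyclic AMP response element and B-box patterns had 1, 2 and 0 matches.

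**Figure D5:**
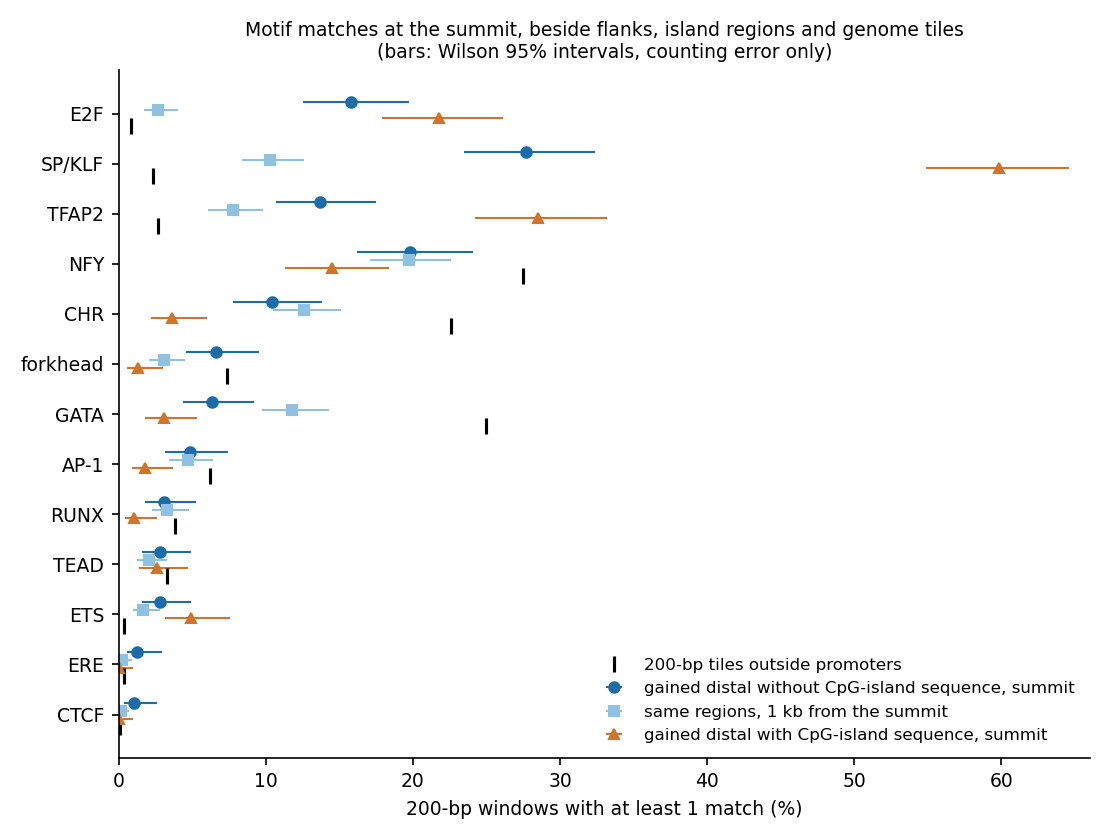
Share of 200-bp windows with at least 1 match to each of 13 patterns (horizontal axis, percent), at the summits of the 393 regions, 1 kb from those summits, at the 386 island regions, and in genomic tiles outside promoters (black ticks). Bars are Wilson 95% intervals; E2F stands at 15.8% at the summits, 2.67% in the flanks and 0.836% in tiles.

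In all, 369 of 19962 protein-coding genes (1.85%) were nearest to at least 1 region. Of 49 luminal lineage genes, 7 were (14.3%; 7.10 to 26.7), and of 86 oestrogen response genes, 7 (8.14%; 4.00 to 15.9). The cell cycle list gave 2 of 80 (2.50%; 0.688 to 8.66) and the basal and mesenchymal list none of 40. The lists were written with earlier results of these data known, so these shares are a description and no test was made.

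The luminal genes included epithelial structural genes and transcription factors. The region at KRT8, which encodes a luminal keratin, lay 22.1 kb downstream of its TSS with folds of 7.52 and 5.53, and was also 69.1 kb from that of KRT18, its partner keratin. KRT19 had a region 21.0 kb upstream (7.25 and 7.23). CDH1, encoding E-cadherin, had one 5.09 kb upstream (6.36 and 5.48), with the E2F pattern shown above.

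Among luminal transcription factors, ELF3 had a region 4.93 kb downstream of its TSS (7.16 and 5.66), SPDEF one 11.3 kb upstream with an E2F pattern in its window (6.27 and 5.67) and ZNF217 one in an intron (4.95 and 6.57). GATA3 was nearest only in the sense that no other coding gene started closer, since its region lay 1151 kb away (7.85 and 7.89). All 7 luminal regions had pileups between 8 and 25 fragments in both libraries.

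Of the oestrogen response genes, IGF1R had the strongest region (18.9 and 17.5). PTGES, which encodes a prostaglandin E synthase, had one 26.3 kb downstream of its TSS (7.85 and 6.57). That of IGFBP5, which encodes a binding protein of insulin-like growth factors, lay 62.7 kb upstream in an intron of the non-coding gene DIRC3-AS1 (6.64 and 6.57). The region nearest to MYC lay 131 kb downstream, in an intron of the non-coding gene PVT1 (12.3 and 8.99). BHLHE40 and RET were also among the genes of this list nearest to a region.

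Among cell cycle genes, CCNE1, which encodes cyclin E1 and is an E2F target, had a region 13.4 kb downstream of its TSS, at chr19:29834970-29835503, with folds of 6.64 and 9.20 and pileups of 10 and 13 fragments. RFC2, a subunit of the clamp loader of DNA replication, had one 15.5 kb upstream (6.04 and 5.26). The region in LTO1 lay 6.93 kb from the nearest start of CCND1, although LTO1 was the nearest gene. No region lay within 100 kb of a start of TFF1, ESR1, GATA3, FOXA1, TFAP2C, XBP1, GREB1 or PGR, genes of the oestrogen receptor programme. The share of all coding genes with a region that near was not counted, so no depletion at these chosen genes can be read.

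Most regions stood alone. With neighbours joined when they lay within 50 kb, 347 were single, 40 formed 20 pairs and 6 formed 2 groups of 3. One group spanned 46.4 kb in NFIC, a nuclear factor I gene, on chromosome 19, with folds in the 2 replicates of 4.59 and 7.87, 6.01 and 6.71, and 6.88 and 5.75. The other spanned 24.5 kb on the X chromosome inside FIRRE, a long non-coding RNA gene, with 6.04 and 7.23, 4.23 and 8.55, and 4.23 and 4.60. The 3 FIRRE regions had 6 to 12 fragments at the summit. GADD45B, a stress-response gene, was also nearest to 3 regions, which did not form a group of 3.

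Chromosome 19 held 48 of the 393 regions, 0.819 per Mb against 0.130 over all chromosomes analysed, and chromosome 4 the fewest per Mb (3 regions, 0.0158). Rb regions of every kind also varied in number between chromosomes. As a share of all merged Rb regions, those described here made up 4.17% on chromosome 19, 4.18% on X and 0.574% on chromosome 4, against 2.65% overall. High numbers on chromosome 19 were not particular to these regions, since 44 of the 386 island regions also lay there. Island regions numbered 15 on X and 11 on chromosome 4.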

How the data were processed

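Rb CUT&RUN peak lists of ZR-75-1 cells were analysed: 2 libraries with DMSO, 2 with 500 nM abemaciclib and 1 with IgG2a, grouped by sample title. Before deposit, the authors trimmed reads (BBDuk), mapped the pairs to GRCh38 (Bowtie2 2.3.4.1), dropped blacklisted and mitochondrial reads, retained duplicates, and ran MACS2 2.2.7.1 on each library at a q-value of 0.05 with IgG as control. The control of the IgG2a list itself is not given in the sources used here. The deposited fold enrichment (a ratio to local background) and −log10 p and q are per peak as the authors' caller wrote them; the deposited score, a rescaled q, was not used. Deposited lists hold no counts over shared regions, so no count model was fitted and no fold was compared between treatments.

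Peaks were merged at 1 bp of overlap and annotated with GENCODE 44. Ranks within a list used −log10 p. Pileups were solved from fold and p where −log10 p was at most 40, at a tolerance of 0.002, and 98.5% or more of such peaks in each library had a solution. Tiles were every 10th 200-bp tile outside promoters. SciPy 1.17.1 gave Fisher's exact tests, adjusted over 7. The pileup solver, the motif search and Fisher's exact test were checked on simulated data. Wilson 95% intervals cover counting error only. The members, gene lists and patterns were chosen with earlier results of these data known. The 2 older symbols in the lists were matched through RefSeq. Regions named were the 12 of best mean rank, up to 5 per gene list, 2 per location class and motif, those within 100 kb of 12 listed genes, those nearest to the limits, and the largest groups within 50 kb. LYST, NFIB, SMPD3, MB, GADD45B, SPDEF, BHLHE40, RET, and the ERE and CTCF regions beyond the first 2 of each, were named after their values were seen. Alternatives covered peak threshold, window, summit, sequence and promoter definitions, IgG2a overlap, DMSO margin, merging overlap and each replicate. Some items that this rule would name are not reported here.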

Additional observations from a re-analysis of the deposited data

How the results depend on the processing

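Across 14 alternative settings, 136 values of 10 results were recomputed, and 108 were classed as unchanged. For the number of regions this meant staying within a set ratio of the main count. For the shares of members it meant lying inside the main Wilson interval. For differences from the comparison set it meant the same direction and the same outcome of Fisher's exact test. Regions numbered 233 with a q-value limit of 1e-05, 91 with both sequence limits required and 211 with promoters of 5 kb either side. Leaving out 1 library gave 398 to 1153. The share within 10 kb of a coding TSS was 40.7% with both limits, 24.2% with 5 kb promoters, which remove nearby regions by construction, and 44.1% to 50.6% leaving out 1 library. The share in coding-gene introns was 36.2% with promoters of coding transcripts only and 36% with 5 kb promoters.

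Differences from island regions, in percentage points, moved as follows. With both limits, the comparison set was all 688 other gained distal regions and not island regions alone. Against that set, intron position was 3.29 and upper rank −6.21, neither passing, and proximity to an Rb promoter region −4.01. With 5 kb promoters, the intergenic difference was −13.3 and passed, summit agreement was −2.13 and promoter proximity −1.51. With coding promoters only, the share within 10 kb differed by 6.88 and promoter proximity by 4.48, and both passed. The 400-bp window gave −0.872 for promoter proximity and −0.331 for summit agreement, and the replicate 2 summit −0.155 and −0.696. Leaving out 1 library, the intergenic difference was −10.3 to −7.07 and passed without either abemaciclib library, the 10-kb difference was −7.13 to 0.127 and passed without abemaciclib replicate 2, and promoter proximity was −2.92 to 1.13. The cause was not tested where none is named. Width of the replicate 2 peak kept its direction and passed under every setting that could give it.

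Replicate 2 attributes had no value without abemaciclib replicate 2, and summit agreement none without either abemaciclib library. No paired analysis was possible because peak presence was compared between treatments without a model. Low pileups limit the depth at which absence of a DMSO peak can be read.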
